A study of Mus musculus with 16 samples.

Results

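The acetylcholine receptor and denervation genes described here are 9 genes chosen by symbol: the muscle receptor subunit genes Chrna1, Chrnb1, Chrnd, Chrng and Chrne, the receptor kinase gene Musk, the adhesion gene Ncam1, the transcription factor gene Runx1 and the stress gene Gadd45a. They are 9 of the 35415 genes in the deposited table. Their RNA was measured by polyA RNA sequencing of gastrocnemius muscle from male BALB/c mice that were 8 weeks old at purchase and labelled wild type. The C group (control, 4 libraries) carried no tumor and was not trained, and the E group (4 libraries) carried no tumor and ran on a treadmill on 6 days of each week over 4 weeks, with daily sessions of 60 min at 14 m/min. The T group (4 libraries) was inoculated with CT26 cells, a colon carcinoma line of the same mouse strain, without training. The TE group (4 libraries) was inoculated in the same way and followed the schedule of the E group. Tumor cells were placed under the skin of the left dorsolateral hind limb, whereas C and E mice received saline with the same anesthesia, and untrained mice were placed on a treadmill that did not move. Each group held 12 mice, of which 4 were sequenced, so every value is from a part of the animals. The paper reports that every T mouse developed a tumor but not every TE mouse. The labels call all 4 TE libraries tumor-bearing.

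The muscle acetylcholine receptor is the channel that opens when a motor nerve releases acetylcholine, and it is a pentamer of alpha, beta and delta subunits with either a gamma subunit, in fetal muscle, or an epsilon subunit, in adult muscle. In innervated adult fibers its genes are read mainly by the nuclei under the nerve terminal, where the kinase encoded by Musk organises the synapse. Loss of the nerve is known to raise the alpha, beta, delta and gamma genes along the whole fiber, together with Musk, Ncam1, Runx1 and Gadd45a, while the epsilon gene depends on synaptic signals. Myogenin, which binds E-boxes (CANNTG), is known to act on the receptor genes in this response. The comparisons ask how the levels of these genes differed with the tumor and with training.

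Of the 9 genes, Gadd45a alone passed the edgeR test in any comparison, and none of the 4 receptor subunit genes that could be fitted passed in any. Gadd45a had a fitted log2 difference of 0.39 ± 0.091 (± standard error, here and for all fitted differences) in tumor-bearing over tumor-free mice of both training states, a call that ended without both the fourth T and the fourth TE library and under other settings. DESeq2 also called Gadd45a (adjusted p = 0.00478). Runx1 had a larger fitted log2 difference of 0.79 ± 0.22 in the same comparison, with an adjusted p of 0.0872 by edgeR and of 0.0156 by DESeq2. Chrng, the fetal gamma subunit gene, had 59 counts in a single T library and at most 9 counts in each of the other 15.

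The libraries held 35628211 to 37635741 counts each. Levels between samples are given as CPM, the counts scaled to the same library total with TMM factors, and the smallest level that could be shown, 3 counts, was 0.0760 to 0.0875 CPM. This limit covers counting error only. All 16 libraries share 1 batch number, and muscle fiber markers (Acta1, Ckm, Mb, Myh4, Myh1 and Tnnt3) summed to between 98260 and 118800 CPM. A pair of libraries stood apart from the rest. The fourth T library had 143.8 CPM of regenerating fiber markers (Myh3, Myh8, Mymk, Mymx and Myog), against 30.24 to 46.28 CPM in the other 15, with Myh3, the embryonic myosin gene, at 71.50 CPM against 1.37 to 7.61 CPM. The fourth TE library had 103.6 CPM of lymphocyte and lymph node markers, against 3.789 to 35.97 CPM in the others. Values without these libraries are given beside the results that they moved most. In bulk RNA, fewer cells of a type and less RNA per cell cannot be told apart.

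**Figure D1:**
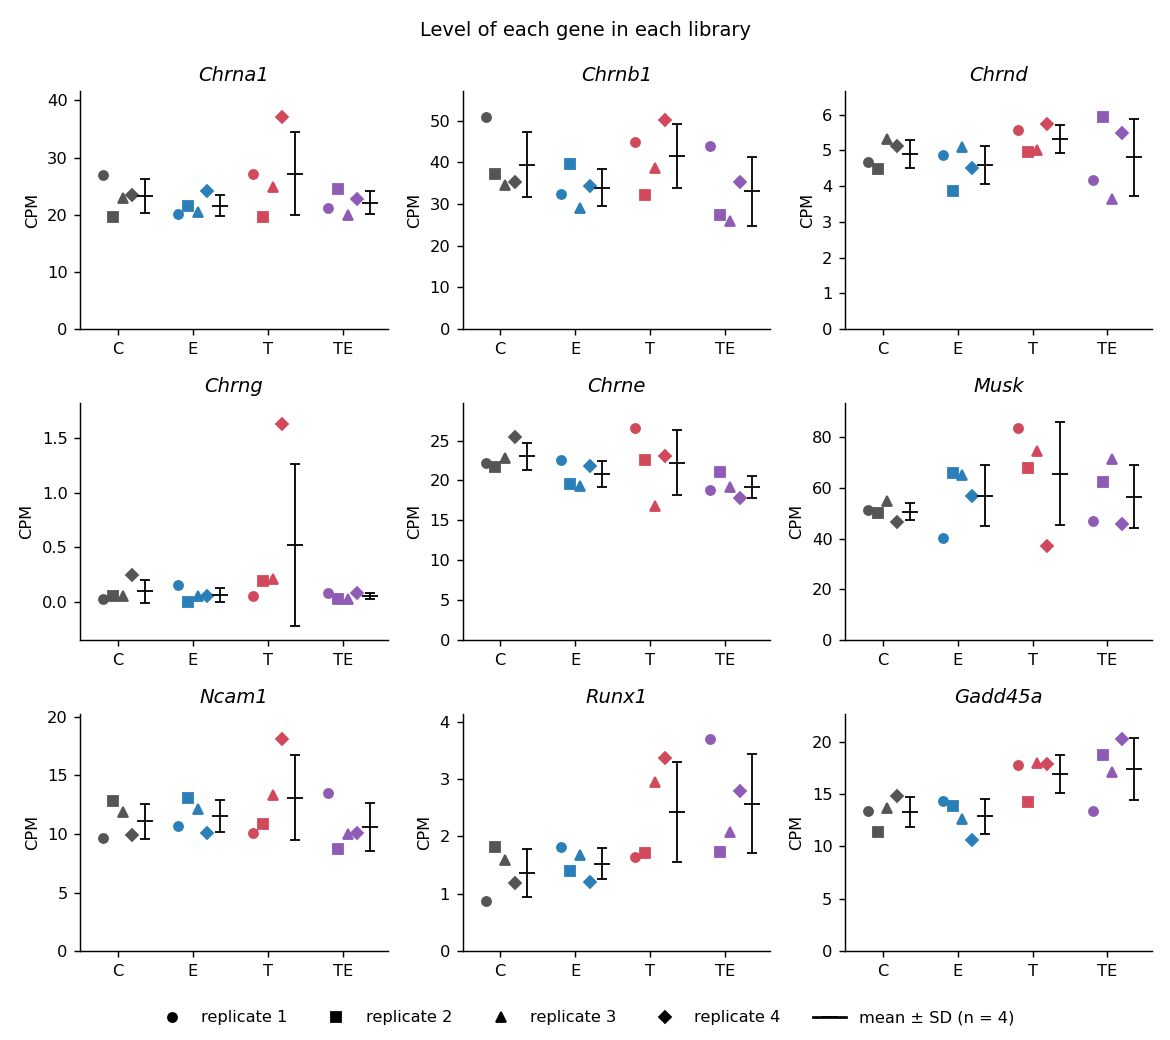
Level of each of the 9 genes in CPM (vertical axes, from 0 except for Chrng, whose axis starts below 0 to hold the SD bar) in the 4 libraries of each group, with symbols for the replicate number and bars for the mean ± SD. The fourth T library (diamond) is highest for Chrng at 1.63 CPM, Chrna1 at 37.13 CPM and Ncam1 at 18.10 CPM, and lowest for Musk at 36.91 CPM.

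The receptor subunit genes ranged widely in level. On the length-scaled FPKM scale, over the 16 libraries, Chrnb1 (beta) had a level of 17.0 ± 3.25 (SD) and Chrne (epsilon) 12.8 ± 1.47. Chrna1 (alpha) had an FPKM of 5.44 ± 0.948, Chrnd (delta) 1.65 ± 0.218 and Chrng (gamma) 0.0870 ± 0.183. The FPKM ranges of Chrnb1 (11.55 to 22.81) and Chrne (10.24 to 15.38) overlapped, while Chrnb1 was above Chrne in 15 of the 16 libraries. Chrne and Chrna1 were apart, at 10.24 FPKM in the lowest Chrne library and 8.466 FPKM in the highest Chrna1 library. Chrna1 and Chrnd were also apart, at 4.476 FPKM in the lowest Chrna1 library and 1.953 FPKM in the highest Chrnd library. Of the other genes, Gadd45a had an FPKM of 12.3 ± 2.19, Musk 7.68 ± 1.69, Ncam1 1.14 ± 0.232 and Runx1 0.267 ± 0.11. In the order of all 9 genes, Chrne and Gadd45a, Gadd45a and Musk, Musk and Chrna1, and Chrnd and Ncam1 overlapped in FPKM, and Ncam1 and Runx1 did not. Chrng was below the lowest Runx1 level of 0.1141 FPKM in 14 of the 16 libraries, within the Runx1 range in the fourth C library (0.1176 FPKM) and above the highest Runx1 level of 0.5033 FPKM in the fourth T library. These levels divide by the single gene length that the authors used for each gene.

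**Figure D2:**
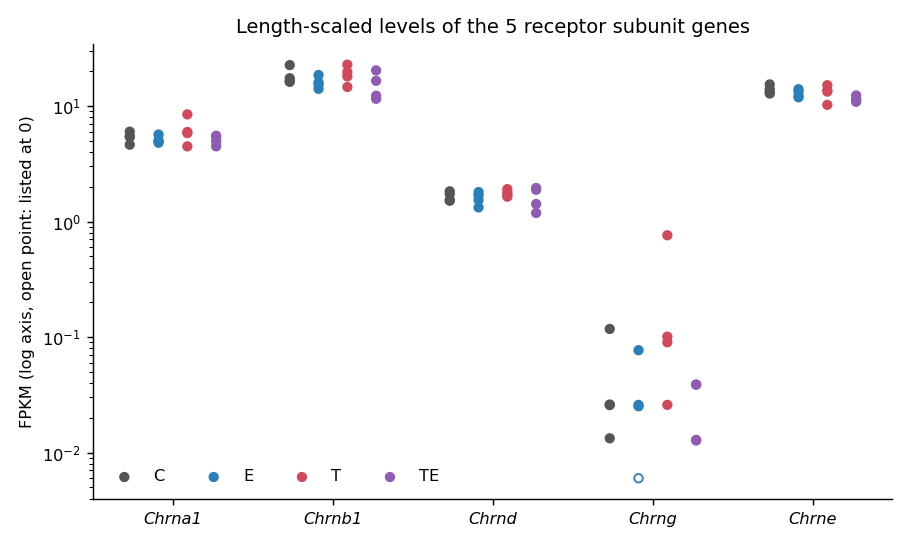
FPKM (vertical log axis) of the 5 receptor subunit genes in single libraries, coloured by group, with an open point for the library in which Chrng is listed at 0. Chrng lies below the other subunits in all 16 libraries, and its highest point, 0.7609 FPKM, is a T library.

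Chrnd and Chrng lie side by side on chromosome 1 in GRCm39, both on the plus strand, Chrnd at chr1:87118306-87127795 and Chrng at chr1:87132379-87140416, with 4583 bases between them. Chrna1 lies at chr2:73393557-73410835, Chrnb1 at chr11:69674860-69686773 and Chrne at chr11:70505707-70510125, all on the minus strand. Promoter sequences from RefSeq were found for 7 of the 9 genes, and none was found for Chrnd and Ncam1. The promoters of the fetal subunit gene, of the alpha gene and of the adult subunit gene are shown because the fetal and adult genes are the pair that a loss of the nerve is known to move apart, and because the alpha and gamma genes had their highest level in the same library. Each line gives the 250 bases before the RefSeq start on the gene's strand, and capitals mark E-boxes (CANNTG) and, in Chrne, the N-box (CCGGAA), a motif known for synaptic expression.
Chrng: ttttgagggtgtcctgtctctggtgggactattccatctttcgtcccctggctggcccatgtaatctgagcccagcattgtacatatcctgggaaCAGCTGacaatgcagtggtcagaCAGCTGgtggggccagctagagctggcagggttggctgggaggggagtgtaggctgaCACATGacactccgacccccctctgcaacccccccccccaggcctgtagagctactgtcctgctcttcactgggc
Chrna1: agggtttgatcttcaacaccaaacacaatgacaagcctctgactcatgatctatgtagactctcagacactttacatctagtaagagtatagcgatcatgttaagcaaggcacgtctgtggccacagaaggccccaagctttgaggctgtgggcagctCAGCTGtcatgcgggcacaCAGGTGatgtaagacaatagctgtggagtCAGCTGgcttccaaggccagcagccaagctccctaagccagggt
Chrne: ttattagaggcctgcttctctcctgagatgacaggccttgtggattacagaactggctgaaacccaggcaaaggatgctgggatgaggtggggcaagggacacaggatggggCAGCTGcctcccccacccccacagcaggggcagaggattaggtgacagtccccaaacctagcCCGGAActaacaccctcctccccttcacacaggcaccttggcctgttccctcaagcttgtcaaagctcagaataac

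By exact match, these windows are chr1:87133283-87133532 for Chrng (plus strand), chr2:73410683-73410932 for Chrna1 (minus strand) and chr11:70510021-70510270 for Chrne (minus strand) in GRCm39. GENCODE places longer transcripts at these genes, so 41 bases of the Chrng window, 153 of the Chrna1 window and 105 of the Chrne window are also annotated as exon. The Chrng and Chrna1 windows each held 3 E-boxes, of which 2 were CAGCTG, a form of CANNTG that reads the same on both strands. In all 32851 RefSeq promoter windows of this length, at least 3 CANNTG motifs occurred in 12.2% and at least 2 CAGCTG motifs in 1.26%. The Chrne window held 1 E-box, a CAGCTG, and 1 N-box, which on either strand occurred in 12% of all windows. Of the other windows, Musk, Chrnb1 and 1 of the 2 Runx1 windows held 3 CANNTG motifs each, Gadd45a held 1, and the second Runx1 window held 0. The Gadd45a window and the second Runx1 window also held 1 N-box each, and the other windows held 0. These matches describe the letters of the windows and not binding.

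Chrna1, which encodes the alpha subunit that binds acetylcholine, had 26.94, 19.69, 22.99 and 23.41 CPM in the C libraries and 20.18, 21.47, 20.46 and 24.19 CPM in the E libraries. It had 27.18, 19.65, 24.89 and 37.13 CPM in the T libraries and 21.26, 24.49, 19.97 and 22.80 CPM in the TE libraries. The groups overlapped, and only the fourth T library lay well above the rest. The fitted log2 difference of T over C was 0.23 ± 0.14 (edgeR, adjusted p = 0.512), and it was 0.037 (adjusted p = 0.925) without the fourth T library and 0.35 (adjusted p = 0.185) without the second.

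Chrnb1, which encodes the beta subunit, had 50.94, 37.18, 34.57 and 35.23 CPM in C and 32.37, 39.70, 29.12 and 34.34 CPM in E. It had 44.98, 32.23, 38.71 and 50.23 CPM in T and 43.89, 27.30, 25.85 and 35.24 CPM in TE. The first C and the fourth T library were highest, so the extremes of C and T were nearly level. The T over C log2 difference was 0.074 ± 0.17 (edgeR, adjusted p = 0.888) and turned to -0.033 (adjusted p = 0.957) without the fourth T library. It was 0.22 without the first C library.

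Chrnd, which encodes the delta subunit, varied little. Its levels were 4.474 to 5.316 CPM in C, 3.874 to 5.089 CPM in E, 4.948 to 5.747 CPM in T and 3.633 to 5.934 CPM in TE. All 4 ranges overlapped, and the T over C log2 difference was 0.12 ± 0.15 (edgeR, adjusted p = 0.766), with a 95% interval from -0.20 to 0.43.

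Chrne, which encodes the epsilon subunit of the adult receptor, had 22.16, 21.65, 22.78 and 25.48 CPM in C and 22.57, 19.51, 19.37 and 21.86 CPM in E. Its levels were 26.57, 22.53, 16.82 and 23.04 CPM in T and 18.77, 21.03, 19.22 and 17.77 CPM in TE. The TE libraries were all below the C libraries, while T spanned both. The T over C log2 difference was -0.050 ± 0.11 (edgeR, adjusted p = 0.880), and no other Chrne difference passed the test either.

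Chrng, which encodes the gamma subunit of the fetal receptor, was too low for the filter on low counts and was not fitted. Its counts were 1, 2, 2 and 9 in C, 6, 0, 2 and 2 in E, 2, 7, 8 and 59 in T and 3, 1, 1 and 3 in TE. The fourth T library thus held 59 of the 108 counts of the series, and 11 of the other 15 libraries were at or under 3 counts. Mean levels were 0.523 ± 0.741 CPM in T and 0.0960 ± 0.102 CPM in C (SD, n = 4; two-sided exact permutation test, p = 0.286; 4 libraries against 4 cannot go below 0.0286). Without the fourth T library the T mean was 0.154 CPM (exact permutation test, p = 0.400). The TE mean was 0.0543 ± 0.0307 CPM (exact permutation test against T, n = 4, p = 0.0857).

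The fetal gene made up little of the gamma and epsilon total. Its share of the summed FPKM of Chrng and Chrne was 0.311% ± 0.302 in C, 0.237% ± 0.227 in E, 1.77% ± 2.36 in T and 0.228% ± 0.138 in TE (SD, n = 4). In the fourth T library the share was 5.28%, and in the other T libraries it was 0.171%, 0.672% and 0.977%. The T mean without that library was 0.606%. This library also had the highest sum of the 5 regenerating fiber markers. It had 0 of them at 0, as did several libraries of C, E and TE, whereas the other T libraries had 1 or 2 at 0. The part of regenerating fibers in this Chrng value was not tested.

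**Figure D3:**
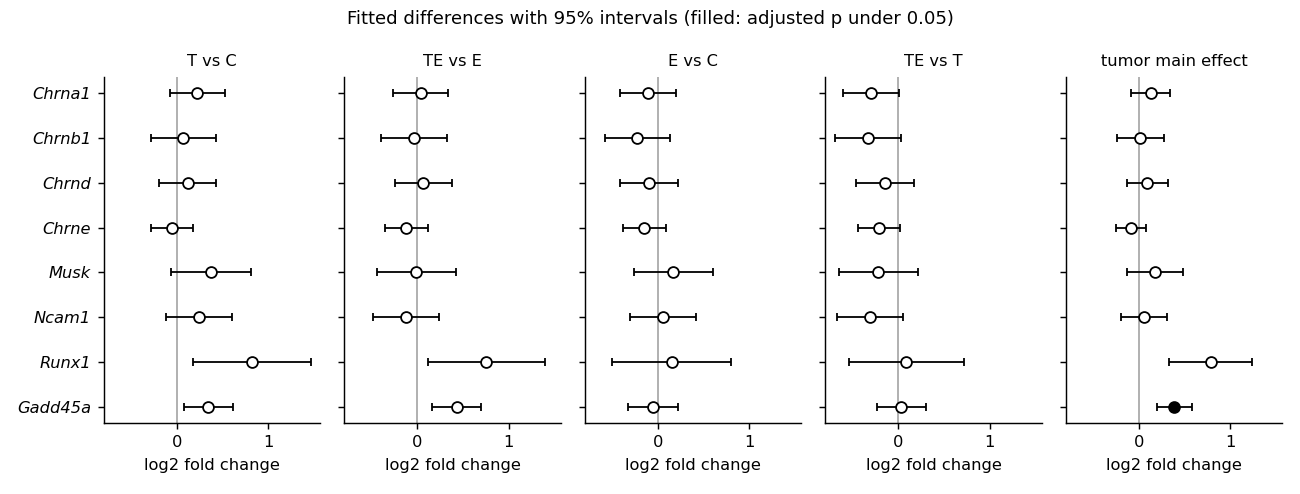
Fitted log2 fold change (horizontal axes) of the 8 genes that could be fitted, with 95% intervals, in the T vs C, TE vs E, E vs C and TE vs T comparisons and in the tumor main effect, from edgeR on all 16 libraries. The filled point, Gadd45a in the tumor main effect at 0.39, is the only one with an adjusted p under 0.05.

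Musk, the kinase that agrin activates through Lrp4, lies at chr4:58285931-58377847 on the plus strand. It had 51.03, 50.10, 54.59 and 46.36 CPM in C and 40.04, 65.92, 64.84 and 56.66 CPM in E. The T libraries had 83.47, 67.55, 74.29 and 36.91 CPM, and the TE libraries 47.01, 62.07, 71.17 and 45.60 CPM. In T, 3 libraries lay above every other library except the third TE library, and the fourth T library was the lowest of all 16. The T over C log2 difference was 0.38 ± 0.21 (edgeR, adjusted p = 0.432), and it was 0.57 (adjusted p = 0.129) without the fourth T library and 0.24 (adjusted p = 0.660) without the first. In the fourth T library Musk lay at the opposite end of the range from Chrna1, Chrng and Ncam1.

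Ncam1, a cell adhesion gene that denervated and regenerating fibers and satellite cells express, lies at chr9:49413436-49710357 on the minus strand. Its levels were 9.681 to 12.83 CPM in C, 10.10 to 13.12 CPM in E, 10.07 to 18.10 CPM in T and 8.747 to 13.52 CPM in TE. The top T value was again the fourth library, and the next highest T library, at 13.34 CPM, was close to the top of the other groups. The T over C log2 difference was 0.24 ± 0.17 (edgeR, adjusted p = 0.559), and 0.042 (adjusted p = 0.934) without that library.

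**Figure D4:**
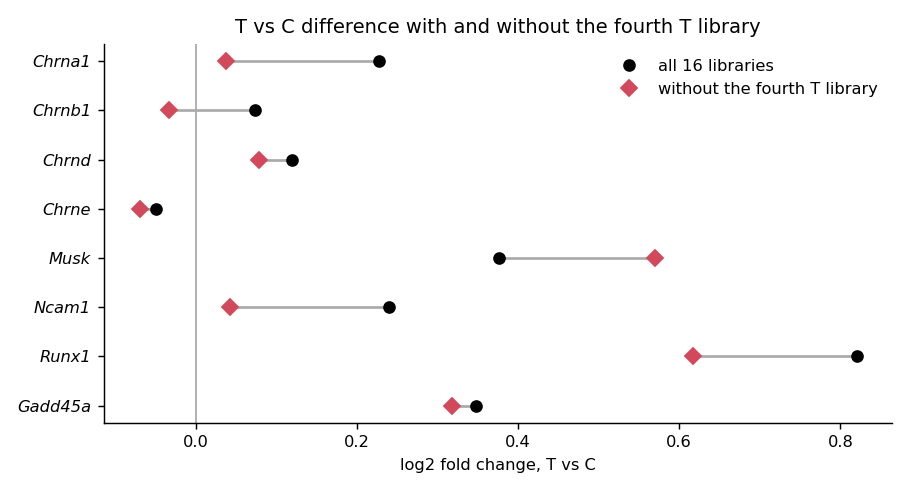
Fitted log2 fold change of T vs C (horizontal axis) for the 8 fitted genes, with all 16 libraries (circles) and without the fourth T library (diamonds). Chrna1 drops from 0.23 to 0.037 and Ncam1 from 0.24 to 0.042, and Musk moves the other way, from 0.38 to 0.57.

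Runx1, a transcription factor known to be switched on in denervated fibers, lies at chr16:92398354-92623037 on the minus strand. It had 0.8748, 1.822, 1.592 and 1.182 CPM in C and 1.813, 1.391, 1.671 and 1.215 CPM in E. The T libraries had 1.645, 1.714, 2.947 and 3.371 CPM, and the TE libraries 3.693, 1.727, 2.080 and 2.783 CPM. Of the 8 tumor-bearing libraries, 5 were above every tumor-free library, and all 8 were above the tumor-free median of 1.492 CPM. The other 3 were level with the upper tumor-free libraries. The log2 difference was 0.82 ± 0.31 for T over C (edgeR, adjusted p = 0.225) and 0.75 ± 0.30 for TE over E (adjusted p = 0.437). The tumor main effect of Runx1, 0.79 ± 0.22 with a 95% interval from 0.33 to 1.24, had an adjusted p of 0.0872 by edgeR and of 0.0156 by DESeq2. It was above the threshold in all 16 edgeR fits that left out 1 library, with adjusted p from 0.0561 to 0.168. With limma on FPKM the tumor main effect of Runx1 was smaller, at 0.52 (adjusted p = 0.157). Its T over C and TE over E differences were 0.54 and 0.49 there. Runx1 is also a blood cell gene. Neutrophil markers (S100a8, S100a9, Ngp, Ltf and Retnlg) summed to 7.712 to 42.55 CPM in T and 9.913 to 16.22 CPM in TE, against 0.6321 to 3.429 CPM in C and 0.6043 to 3.779 CPM in E, and all 5 rose in T over C (adjusted p under 0.05) with no tumor-bearing library having any of them at 0. In TE over E, 0 of the 5 were called, and in the tumor main effect all 5 were. Their part in the Runx1 level was not tested.

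Gadd45a, a stress gene that denervation induces in fibers and that is known for chromatin changes in atrophy, lies at chr6:67012070-67014441 on the minus strand. It had 13.41, 11.33, 13.68 and 14.81 CPM in C and 14.32, 13.89, 12.58 and 10.64 CPM in E. The T libraries had 17.72, 14.21, 17.92 and 17.90 CPM, and the TE libraries 13.36, 18.69, 17.11 and 20.23 CPM. Of the 8 tumor-bearing libraries, 6 were above every tumor-free library, and the second T and the first TE library were within the tumor-free range. The mean was 17.1 ± 2.28 CPM in tumor-bearing and 13.1 ± 1.46 CPM in tumor-free libraries (SD, n = 8). Gadd45a rose in the tumor main effect by a log2 difference of 0.39 ± 0.091, a fold of 1.31 (edgeR, adjusted p = 0.0402). By itself the T over C difference was 0.35 ± 0.13 (adjusted p = 0.220) and the TE over E difference 0.43 ± 0.13 (adjusted p = 0.230). The call was near the threshold: leaving out 1 library ended it in 12 of 16 cases, among them both libraries that stood apart (adjusted p = 0.0674 without the fourth T and 0.0701 without the fourth TE library), with differences between 0.35 and 0.44. It also ended without both of them (log2 difference 0.34, edgeR adjusted p = 0.102), with the replicate number as a block (adjusted p = 0.075) and with limma on FPKM (adjusted p = 0.0874). It remained without the first or second E, the second T or the first TE library. The call also remained with DESeq2 (adjusted p = 0.00478), with its size factors in edgeR (adjusted p = 0.0385) and without the filter on low counts (edgeR, adjusted p = 0.0231). Of the exonic bases of Gadd45a, 55.8% overlap the antisense transcript E230016M11Rik, and the strand setting of the counting is not given in the sources used here. That transcript had 12 to 27 counts in C, 4 to 24 in E, 6 to 9 in T and 7 to 19 in TE, against 394 to 756 counts of Gadd45a.

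Counts of calls among the 8 fitted genes are read against the share of all tested genes. In T over C, 0 of 8 were called, against 0.678% of all 14749 tested genes (100 genes), and 2 of 8 had an unadjusted p under 0.05 (Runx1 and Gadd45a), against 14.2% of all tested genes. DESeq2 called 0 of the 8 and 422 genes in all. Their median log2 difference was 0.23, beside -0.0012 for all tested genes, and it was 0.060 without the fourth T library. In TE over E, 0 of 8 were called, against 0.231% of all tested genes, and 2 of 8 had an unadjusted p under 0.05, against 9.23% of all tested genes. DESeq2 called 0 of the 8 and 179 genes in all, and the median of the 8 was 0.013. In the tumor main effect 1 of 8 was called, against 1.36% of all tested genes, and 2 of 8 had an unadjusted p under 0.05, against 14.2% of all tested genes. DESeq2 called 2 of the 8 (Gadd45a and Runx1) and 478 genes in all. The median of the 8 was 0.11, beside 0.00088 for all genes, and it was 0.058 without the fourth T library and 0.038 without both libraries that stood apart, where edgeR called 0 of 8.

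Training did not move any of these genes past the test. In E over C, 0 of 8 were called, against 0.0881% of all tested genes (13 genes), and 0 of 8 had an unadjusted p under 0.05, against 14.2% of all tested genes. DESeq2 called 0 of the 8 and 280 genes in all. The E over C log2 differences ran from -0.22 ± 0.17 for Chrnb1 to 0.17 ± 0.21 for Musk. Leaving out 1 library gave -0.31 to -0.075 for Chrnb1, the latter without the first C library, and 0.094 to 0.31 for Musk. In TE over T, edgeR called 0 of 8, against 0% of all tested genes, where 867 genes (5.88%) and 0 of the 8 had an unadjusted p under 0.05 and DESeq2 called 7 genes and 0 of the 8.

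In TE over T, the differences of the 4 fitted receptor genes, Musk and Ncam1 were all below 0. They were -0.30 ± 0.14 for Chrna1, -0.33 ± 0.17 for Chrnb1, -0.14 ± 0.15 for Chrnd, -0.21 ± 0.11 for Chrne, -0.22 ± 0.20 for Musk and -0.30 ± 0.17 for Ncam1, with edgeR adjusted p from 0.848 to 0.952. Without the fourth T library Chrna1 was at -0.11, Chrnb1 at -0.22 and Ncam1 at -0.10, and Musk at -0.41, while Musk was at -0.078 without the first T library. Leaving out 1 library gave -0.26 to -0.029 for Chrnd and -0.32 to -0.11 for Chrne. Runx1 and Gadd45a had TE over T differences of 0.087 ± 0.30 and 0.035 ± 0.13. The 95% interval of the Gadd45a difference ran from -0.23 to 0.30. Chrne was below 0 in both T over C and TE over T, and Runx1 and Gadd45a were above 0 in both. T libraries enter both comparisons, so the opposite signs of the other fitted genes share the same samples.

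In the training main effect 0 of 8 were called, against 0.00678% of all tested genes (1 gene), and DESeq2 called 0 of the 8 and 99 genes in all. Chrnb1 (-0.27 ± 0.12, edgeR adjusted p = 0.429) and Chrne (-0.18 ± 0.077, adjusted p = 0.425) were the 2 of 8 with an unadjusted p under 0.05, against 10.8% of all tested genes. In the interaction of tumor and training, edgeR called 0 of 8, against 0% of all tested genes, with 0 of the 8 and 1358 genes at an unadjusted p under 0.05, and DESeq2 called 20 genes and 0 of the 8. The largest interaction values were -0.39 ± 0.29 for Musk and -0.36 ± 0.24 for Ncam1, and without the fourth T and the fourth TE library Musk was at -0.48 and Ncam1 at -0.13.

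Of 20 further neuromuscular junction genes, 19 were tested, and 0 passed the edgeR test in any of the 7 comparisons, with 4 at an unadjusted p under 0.05 in T over C and 2 in the tumor main effect, against 14.2% of all tested genes in both, and 2 in the interaction, against 9.21%. There were 1 each in TE over E (9.23% of all), E over C (14.2%) and the training main effect (10.8%) and 0 in TE over T (5.88%). DESeq2 called Prkar1a in T over C and Utrn in E over C and in the training main effect. The edgeR differences ran from -0.36 to 0.36 in T over C, from -0.76 to 0.19 in TE over E and from -0.25 to 0.78 in E over C. In T over C 10 were above 0 and 9 below, with a median of 0.015. In TE over E 3 were above 0 and 16 below, with a median of -0.094, in TE over T 6 and 13 (-0.045), in the tumor main effect 5 and 14 (-0.059) and in the interaction 5 and 14 (-0.14). Rapsn, which clusters the receptor, had a T over C log2 difference of -0.040 ± 0.098, Agrn, the nerve signal to Musk, -0.012 ± 0.098 and Lrp4, its receptor, 0.073 ± 0.16. Dok7, the Musk adaptor, had 0.36 ± 0.17 (edgeR, adjusted p = 0.350). Ache, the enzyme that breaks down acetylcholine, had -0.36 ± 0.12 (adjusted p = 0.179), with 31.80 to 35.92 CPM in C and 20.76 to 30.38 CPM in T. The tumor-free E libraries were also below C, at 22.78 to 30.82 CPM, and TE had 23.93 to 32.56 CPM. Its log2 difference was -0.25 ± 0.12 in E over C and -0.090 ± 0.12 in TE over E.

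Of 19 further genes of the denervation response, 17 were tested, and 0 passed the edgeR test in the 4 comparisons of single groups, with 5 at an unadjusted p under 0.05 in T over C and 4 in E over C, against 14.2% of all tested genes in both, 1 in TE over E (9.23% of all) and 3 in TE over T (5.88%). The tumor main effect had 2 of 17 at an unadjusted p under 0.05 (14.2% of all) and the training main effect 3 of 17 (10.8%). In the interaction 6 of 17 had an unadjusted p under 0.05 (9.21% of all) and 0 passed the edgeR or the DESeq2 test, with 11 of 17 below 0 and a median of -0.36, which was -0.29 without both libraries that stood apart. DESeq2 called Cdkn1a (adjusted p = 0.017) and Myh3 (adjusted p = 0.0092) in T over C, Myf6 in E over C and Myh3 in TE over T, and edgeR without the filter on low counts also called Cdkn1a and Myh3 in T over C (adjusted p = 0.0176 and 0.0226). In T over C 13 of 17 were above 0 with a median of 0.27, and 12 of 17 with a median of 0.19 without the fourth T library. In TE over E 9 of 17 were above 0 with a median of 0.043, and in TE over T 3 of 17 with a median of -0.16 (6 of 17 with a median of -0.032 without the fourth TE library and 6 of 17 with -0.094 without both libraries that stood apart), while in the tumor main effect 13 of 17 were above 0 with a median of 0.16. Myog, the myogenin gene, had a T over C difference of -0.20 ± 0.31 and 3.621 to 11.27 CPM in T against 5.744 to 9.506 CPM in C, with its top T value in the fourth library. Hdac4, which links activity to myogenin, had 0.15 ± 0.13, and Dach2, a repressor that falls after denervation, 0.59 ± 0.76. Trim63, an atrophy ubiquitin ligase, had 0.42 ± 0.24 (edgeR, adjusted p = 0.452). Myh3 had 3.17 ± 0.80 (adjusted p = 0.0776), and it was 0.87 (adjusted p = 0.293) without the fourth T library.

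Cdkn1a, a cell cycle inhibitor that denervation and p53 induce, was the only gene of either list that was called in the tumor main effect, where it rose by 1.01 ± 0.22 (edgeR, adjusted p = 0.0295). It was 1 of the 17 tested denervation genes, against 1.36% of all tested genes called. It had 10 to 15.65 CPM in C and 15.39 to 23.90 CPM in E, against 15.51 to 60.16 CPM in T and 22.08 to 40.71 CPM in TE. Its call ended in 6 of 16 fits that left out 1 library (the third and the fourth C, the first, the third and the fourth E and the third TE library), with adjusted p up to 0.0772. It also ended without both the fourth T and the fourth TE library (log2 difference 1.02, edgeR adjusted p = 0.0598), with the replicate number as a block (adjusted p = 0.0636) and with limma on FPKM (adjusted p = 0.0806).

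**Figure D5:**
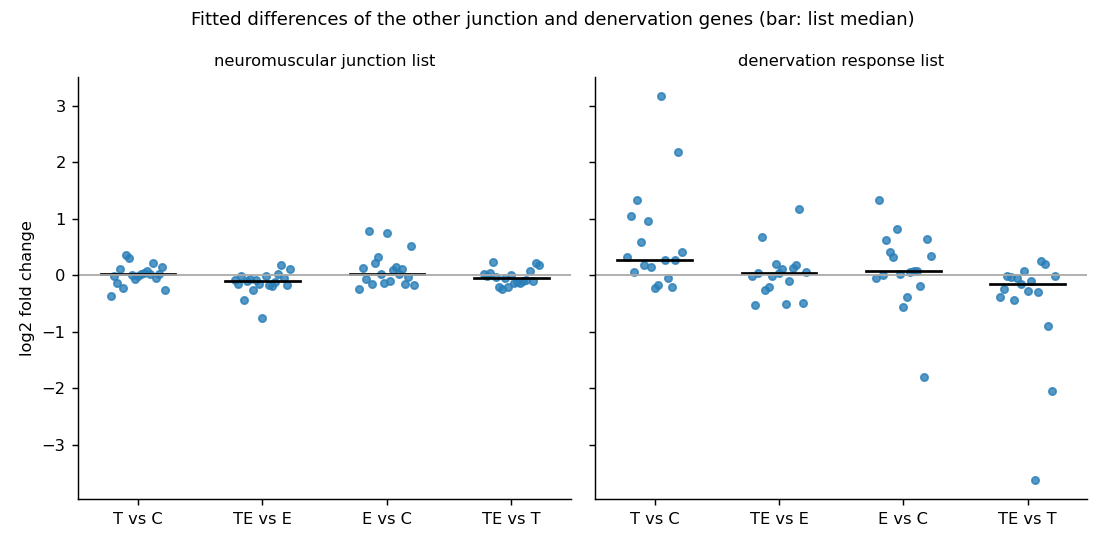
Fitted log2 fold change (vertical axis) of the tested genes of the neuromuscular junction list (left, 19 genes) and of the denervation response list (right, 17 genes) in the 4 comparisons of single groups, with bars for the list median. The junction medians lie between -0.094 and 0.031, and the highest point of the denervation list is Myh3 in T vs C at 3.17.

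Markers of other cells of the muscle were also summed. Macrophage markers summed to 55.84 to 108.2 CPM in C, 65.81 to 118.0 CPM in E, 72.33 to 172.5 CPM in T and 72.97 to 152.5 CPM in TE, with the fourth T, the fourth TE and the third T library highest, and 0 of the 6 were called in any comparison. All 6 were above 0 in T over C (median 0.74), in E over C (0.35) and in the tumor main effect (0.43). In TE over E 5 of 6 were above 0 (0.049), and in TE over T all 6 were below 0 (-0.27). Satellite cell markers (Pax7, Myf5, Calcr, Chodl and Heyl) summed to 36.93 to 42.22 CPM in C, 49.82 to 55.20 CPM in E, 31.10 to 56.95 CPM in T and 40.30 to 45.63 CPM in TE, and 0 of the 5 were called in any of the 4 comparisons of single groups. Markers of the nerve sheath (Mbp, Pmp22, Sox10, S100b and Cnp) summed to 230.6 to 489.0 CPM in C and 207.7 to 469.7 CPM in E, against 164.8 to 324.5 CPM in T and 173.6 to 239.8 CPM in TE, with 0 of them at 0 in any library. All 5 had differences below 0 in T over C and in TE over E, and S100b, the 1 of them that was called, fell in the tumor main effect by 0.73 ± 0.17 on the log2 scale (edgeR, adjusted p = 0.0436). That call ended in 11 of 16 fits that left out 1 library, among them the fit without the fourth T library (adjusted p = 0.0674), and also without both libraries that stood apart (adjusted p = 0.067), with the replicate number as a block (adjusted p = 0.0571) and with limma on FPKM (adjusted p = 0.0549). The S100b difference was -0.73 without the fourth T library, -0.77 without both libraries, and -0.70 with the block and with limma. Endothelial markers summed to 427.2 to 624.7 CPM, adipocyte markers to 11.02 to 197.9 CPM and tendon markers to 72.42 to 236.0 CPM over the 16 libraries, with the highest tendon sums in E. Of these, Kdr, an endothelial receptor gene, fell in T over C by 0.68 on the log2 scale (edgeR, adjusted p = 0.0457) and in the tumor main effect by 0.69 (adjusted p = 0.00233), the latter in all 16 fits that left out 1 library and the former lost in most of them. The other 3 endothelial markers were not called, with tumor main effects of 0.20 ± 0.097 for Pecam1, -0.20 ± 0.059 for Cdh5 and -0.044 ± 0.070 for Tie1. Of the 4 tendon markers, Fmod and Tnmd rose in E over C, by 1.99 ± 0.31 and 1.56 ± 0.26 (edgeR, adjusted p = 0.0206 and 0.0274), whereas Thbs4 had 0.63 ± 0.17 and Scx -0.41 ± 0.24, neither called. Both E over C calls ended without the first C library, where 0 genes were called in that comparison. In TE over E, Fmod and Tnmd fell by 1.62 and 1.57 on the log2 scale (edgeR, adjusted p = 0.0371 and 0.0104), and Thbs4 had -0.54 ± 0.17 and Scx 0.31 ± 0.25, neither called. Tnmd also fell in the tumor main effect (edgeR, adjusted p = 0.0241). The part of these cells in the levels of the receptor genes, Musk, Ncam1, Runx1 and Gadd45a was not tested.

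The genes whose log2 CPM followed each fitted gene most closely over the 16 libraries were also looked up. Musk had Pnpla8 as its nearest gene, with a Pearson r of 0.917 and Spearman rho of 0.935, and r was 0.903 without the 2 libraries in which Musk was farthest from its median. Gadd45a was nearest to Padi2 (r = 0.900, rho = 0.932) and Ifitm1 (r = 0.883), and Runx1 to Ccsap (r = 0.821). Chrnb1 was nearest to Actr1a (r = 0.851), Chrnd to Mtfr1l (r = 0.873) and Chrne to Fzr1 (r = 0.834). Chrna1 was nearest to Prkaca (r = 0.859), and without the fourth and the first T libraries r was 0.622. Ncam1 was nearest to Cilp (r = 0.807) and Myh3 (r = 0.798), and these were 0.555 and 0.615 without the fourth T and the first TE libraries. Each is among the 2 highest of 14741 candidates and pools the 4 groups, so r is a description.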

How the data were processed

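Gastrocnemius RNA of 16 mice was sequenced, 4 per group, with groups from the labels. According to the submitters' processing notes, the authors used fastp 0.20.1, HISAT2 2.1.0, HTSeq 0.11.2 and GRCm39. The annotation release and strand setting are not given in the sources used here. The authors deposited raw counts per gene, and FPKM values that are these counts divided by library total and 1 length per gene (checked on 11001 genes). The tables held 0 columns of other samples.

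Counts were tested with edgeR 4.0.16 in R 4.3.3 (TMM, filterByExpr, quasi-likelihood test, 1 coefficient per group, all 16 libraries) on 14749 of 35415 genes. A call was a two-sided Benjamini-Hochberg adjusted p under 0.05 over all tested genes of a comparison. Main effects average over the other factor, and the interaction is the difference of the training effects. Intervals cover the spread between 4 mice per group. Libraries of a group differed beyond sampling (chi-square over degrees of freedom from 12.7 to 61.3).

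All 9 genes were named whatever their values. Of the junction and denervation lists, called genes and 11 listed genes were to be named, of which 1 is not reported here, and 1 marker list is given by 5 of its 7 genes. For likeness, the 2 genes with the highest Pearson r on log2 CPM (prior count 2) were taken. Genes, lists and markers were chosen with earlier results of these data known, and setting aside both libraries that stand apart was added after seeing the data. Alternatives were DESeq2 1.42.0, its size factors in edgeR, no filter, a fold threshold of 2, the replicate number as a block, limma 3.58.1 on log2(FPKM + 0.1), only the 2 groups compared, and each library left out. Positions come from GENCODE, and promoters from RefSeq on GRCm38.p6, placed on GRCm39 by exact match. Scripts were tested on simulated data, and figures drawn with matplotlib 3.10.9.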

Additional observations from a re-analysis of the deposited data

Results flagged for a closer look

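With 9 genes in 4 groups, 36 groups of 4 libraries were screened for a library far from the other 3, and 4 were found. The limit is set to flag about 1 in 20 groups of independent normal values. Chrng has few counts and the 9 genes share libraries, so the 4 cannot be compared with that share. Chrng was at 1.63 CPM in the fourth T library against 0.0577 to 0.2105 CPM in the other T libraries. Chrng was also at 0.2473 CPM (9 counts) in the fourth C library, against 0.0292 to 0.0540 CPM in the other C libraries, which are at or under the level of 3 counts. Chrnb1 was at 50.94 CPM in the first C library against 34.57 to 37.18 CPM in the others. Gadd45a was at 14.21 CPM in the second T library, below the 17.72 to 17.92 CPM of the other T libraries, and its adjusted p in the tumor main effect was 0.0187 without that library (edgeR).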

How the results depend on the processing

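The numbers of members called were 0 under every alternative in the 4 group comparisons, the training main effect and the interaction. In the tumor main effect the 1 call (Gadd45a) became 2 with DESeq2 (Gadd45a and Runx1), and 0 with a fold threshold of 2, with limma on log2(FPKM + 0.1), without both the fourth T and the fourth TE library, and with the replicate number as a block (adjusted p = 0.075). Leaving out 1 library gave 0 to 1. Same-numbered libraries were not paired (correlations of their deviations from -0.241 to 0.214), and the block moved the count of all genes by over 1.5 times only in E vs C, from 13 to 25.

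Counts of all genes called depended more on the settings, and the cause was not tested. DESeq2 called 422 in T vs C, 179 in TE vs E, 280 in E vs C, 7 in TE vs T, 478 in the tumor main effect, 99 in the training main effect and 20 in the interaction. Without a filter there were 174, 69, 45 and 3 in the 4 group comparisons and 17 in the training main effect. The fold threshold left 42, 11 and 7 in T vs C, TE vs E and E vs C and 54 in the tumor main effect, limma left 43, 20 and 6 and gave 3 in the training main effect, and only the 2 groups compared gave 30, 96 and 183. DESeq2 size factors gave 21 in E vs C, and setting both doubted libraries aside gave 3 in the training main effect. Leaving out 1 library gave 16 to 255 in T vs C, 18 to 69 in TE vs E, 0 to 127 in E vs C, 0 to 2 in TE vs T, 130 to 281 in the tumor main effect, 1 to 104 in the training main effect and 0 to 1 in the interaction.

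In T vs C, TE vs T and the tumor main effect, signs turned for 6 member values of at most 0.087 in size, and the turned values had adjusted p of at least 0.863. Without both doubted libraries, Chrnb1 was at -0.034 in T vs C and -0.046 in the tumor main effect, where Ncam1 was at -0.024, and Gadd45a at -0.012 in TE vs T. Limma gave -0.031 for Chrnb1 in the tumor main effect. With 1 library left out, Chrnb1 ranged from -0.033 to 0.22 in T vs C and from -0.064 to 0.095 in the tumor main effect, Ncam1 from -0.036 to 0.11 in the tumor main effect, Chrne from -0.15 to 0.059 in T vs C, and Runx1 from -0.14 to 0.29 and Gadd45a from -0.040 to 0.14 in TE vs T. Of the 24 member values not printed singly, 14 of at most 0.19 in size changed sign under at least 1 of 23 or 24 alternatives and 0 changed their call. The share of Chrng stayed within 1 SD when counts replaced FPKM (0.394% in C, 0.300% in E, 2.23% in T and 0.290% in TE) and when 1 library was left out, but those SDs include the libraries concerned: the share was 0.161% in C without the fourth C library, 0.133% in E without the first E library and 0.606% in T without the fourth T library. With counts at or under 3 in 11 of 15 libraries, depth limits what can be said of Chrng.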
